A study of Drosophila melanogaster with 84 samples.

Results

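Transcripts of 7 genes that set resting membrane conductance were followed in Drosophila clock neurons: na, unc79, unc80 and Nlf-1 of the sodium leak complex, and the inward rectifier genes Irk1, Irk2 and Irk3. They were taken by name and are 7 of the 15801 genes listed. Nlf-1 was listed under its other symbol, Mid1. The cells came from adult brains of flies in which Clk856-GAL4 drove EGFP, a driver active in most but not all clock neurons and also in some other cells. For DD, flies were sampled at circadian times CT2 to CT22 after 3 days in constant darkness. For LD, they were sampled at zeitgeber times ZT2 to ZT22 after 3 days of 12 h light and 12 h darkness. Both series had a sample every 4 h, equal numbers of males and females, and blockers of voltage-gated sodium channels and of glutamate receptors in the dissection saline.

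The resting potential of a neuron depends on a balance of background currents. Narrow abdomen, the protein of na, is the fly member of the NALCN family of sodium leak channels, which depolarize the membrane at rest. UNC79 and UNC80 are its large auxiliary subunits, and NLF-1 is a protein of the endoplasmic reticulum that helps the channel to reach its place in the membrane. In flies this sodium leak is known to be under clock control in dorsal clock neurons. The Irk genes encode Kir channels, which pass potassium inward more readily than outward and hold the membrane at negative potentials.

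UMIs, counts of distinct captured RNA molecules, were read in 8060 wells of 84 libraries, 48 of DD and 36 of LD. Of these wells, 5001 had 1000 to 6000 genes and 6000 to 75000 UMIs, 2401 of them in DD and 2600 in LD. Library totals were 191993 to 3848092 UMIs in DD and 677725 to 4259643 UMIs in LD, and the median kept well had 13702 UMIs in DD and 17302 UMIs in LD. The plates used one set of 96 well barcodes, of which 92 occurred in every library. Libraries of 1 time point with the same number in their label were summed as 1 batch, which gave 14 batches in DD and 14 in LD. No such number occurred in both, so that light condition and batch cannot be told apart. The labels do not say that batches came from separate groups of flies, and p-values measure only the spread between batches, which may be technical. As a check of the time labels, the clock gene tim cycled in all 5 classes in the fit shared by DD and LD, with peaks at 14.9 to 16.2 h, and vri, another clock gene, in all but CCHa1 cells.

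Levels are given in TP10K, the UMIs of a gene per 10000 UMIs of all genes in the same cells. Classes were gated on peptide transcripts, and 1377 kept wells fell in exactly 1 gate. There were 426 Pdf cells (at least 150 TP10K of Pdf), 140 ITP cells (at least 150 of ITP), 169 Trissin cells (at least 40 of Trissin), 194 CCHa1 cells (at least 10 of CCHa1) and 448 AstC/VGlut cells (at least 50 of AstC and 8 of VGlut). Some markers that were not gated on went with these names and others did not. The lateral neuron marker toy stood at 3.59 to 6.52 TP10K in Pdf, ITP and Trissin cells and at 0.926 and 0.660 TP10K in CCHa1 and AstC/VGlut cells. The DN1p marker gl stood at 2.72 TP10K in AstC/VGlut cells and at 0.121 to 0.205 TP10K in the other classes, and Rh7, a marker of DN1a cells, at 2.82 TP10K in CCHa1 cells and at 0.261 to 0.422 TP10K elsewhere. Against the names, D, of the DN1p list, stood at 2.04 and 2.31 TP10K in ITP and Trissin cells and at 2.25 TP10K in AstC/VGlut cells. Dh31, of the DN1a list, stood at 1.57 TP10K in CCHa1 cells, below the 4.57 TP10K of Pdf cells. The study also uses Dh31 for DN1p cells, and its 24.1 TP10K in AstC/VGlut cells went with that name. The lateral list's cry stood at 3.52 TP10K in CCHa1 cells and 2.53 TP10K in Trissin cells. With the names, ham, CNMa and pdm3 of the DN1p list were highest in AstC/VGlut cells, at 1.48, 53.0 and 12.8 TP10K. The lateral list's sNPF stood at 5.21 TP10K in Pdf cells and 16.9 TP10K in Trissin cells, where the study places it. It stood at 1.03 TP10K in ITP cells and 1.18 TP10K in CCHa1 cells. The classes are therefore named here by their gates alone. Pdf itself was read at 11.8 to 17.5 TP10K in the 4 classes gated on other genes, against 448 TP10K in Pdf cells. Of the glial markers, repo was near 0 in every class (0.00707 to 0.0322 TP10K). The summed glial markers had medians over batches of 0.113 to 0.301 TP10K, but single batches were higher. The highest batch of each class had 0.669 to 3.38 TP10K in DD, while in LD it had 27.3 TP10K in ITP, 10.4 in Pdf, 8.83 in CCHa1, 8.28 in AstC/VGlut and 6.18 in Trissin cells. The part of these transcripts in the results was not tested.

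The first comparison asked how the level of each gene differed between classes. The pore gene na was read at similar levels in all of them. Pdf cells had 0.613 ± 0.321 TP10K in DD and 0.772 ± 0.251 TP10K in LD (SD, n = 13 batches each). AstC/VGlut cells had 0.590 ± 0.316 TP10K in DD and 0.695 ± 0.171 TP10K in LD (SD, n = 13 batches each). Over both light conditions the class means of na lay between 0.642 and 0.736 TP10K. Each class was then set against the mean of the other 4 in an edgeR quasi-likelihood fit with a term for the batch. The log2 differences of na were -0.06 to 0.08, with standard errors of 0.17 to 0.21, and none passed.

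The auxiliary subunit gene unc80 gave the same picture. Its class means lay between 1.22 and 1.51 TP10K, and its log2 differences were -0.17 to 0.20, with standard errors of 0.11 to 0.14, none of which passed. Single batches of Trissin cells ranged widely, from 0.0870 to 5.54 TP10K over both light conditions (median 1.09, n = 22). UMIs of na, unc79 and unc80 were found together in 190 of 426 Pdf cells (44.6%), 57 of 140 ITP cells (40.7%), 67 of 169 Trissin cells (39.6%), 77 of 194 CCHa1 cells (39.7%) and 174 of 448 AstC/VGlut cells (38.8%). All of these cells also had UMIs of Nlf-1. Between 2.96% and 4.29% of the cells of a class had no UMI of na, unc79 or unc80.

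The other auxiliary subunit gene, unc79, was lowest in Trissin cells and highest in CCHa1 cells. Trissin batches had 0.730 to 2.82 TP10K (median 1.62, n = 22), and CCHa1 batches 0.385 to 5.93 TP10K (median 2.22, n = 23). The batches of both classes overlapped, and the differences below are those within batches. Against the other classes, unc79 was lower in Trissin cells by a log2 difference of -0.42 (SE 0.12, edgeR adjusted p = 0.00571) and higher in CCHa1 cells by 0.40 (SE 0.11, edgeR adjusted p = 0.00309). Trissin minus CCHa1 gave -0.65 (SE 0.15, edgeR adjusted p = 0.00025). The Trissin difference no longer passed with at least 6 cells per batch (-0.23) or with gates raised 2 times (-0.29), and the CCHa1 difference no longer passed without the filter on low counts (0.33).

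Nlf-1, the gene of the endoplasmic reticulum factor, was detected in 96.2% to 99.3% of the cells of each class. Its class means lay between 7.85 TP10K in AstC/VGlut cells and 9.59 TP10K in Pdf cells. Against the other classes no difference passed, the largest being that of AstC/VGlut cells with a log2 difference of -0.19 (SE 0.08, edgeR adjusted p = 0.0813). Between single classes, Pdf minus AstC/VGlut was 0.28 (SE 0.10, edgeR adjusted p = 0.0268).

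Of the 5 members tested, Irk1 had the largest differences between classes. Pdf batches had 0.0898 to 6.94 TP10K (median 0.874, n = 26), ITP batches 0 to 3.96 TP10K (median 0.488, n = 20), and AstC/VGlut batches 0 to 1.44 TP10K (median 0.503, n = 26). CCHa1 batches had 0 to 2.70 TP10K (median 0.354, n = 23) and Trissin batches 0 to 1.67 TP10K (median 0.141, n = 22). All 5 ranges overlapped. Irk1 was higher in Pdf cells than in the mean of the other classes by a log2 difference of 1.06 (SE 0.24, edgeR adjusted p = 0.000181) and lower in Trissin cells by -1.43 (SE 0.35, edgeR adjusted p = 0.00075). The difference in ITP cells, 0.75, did not pass (SE 0.29, edgeR adjusted p = 0.0595). With gates raised 2 times the Pdf difference was 0.67 and no longer passed.

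By class means of Irk1 the order was Pdf (1.19 TP10K), ITP (1.11), AstC/VGlut (0.59), CCHa1 (0.57) and Trissin (0.33). No neighbours in this order differed beyond their spread (edgeR adjusted p = 0.242 to 0.688). Of the 6 pairs further apart, 5 passed and Pdf minus AstC/VGlut did not (0.72, SE 0.29, edgeR adjusted p = 0.0674). Pdf minus Trissin was 1.99 on the log2 scale (SE 0.39, edgeR adjusted p = 1.23e-05), Pdf minus CCHa1 1.27 (SE 0.35, edgeR adjusted p = 0.00196) and ITP minus Trissin 1.74 (SE 0.42, edgeR adjusted p = 0.00089). ITP minus CCHa1 was 1.03 (SE 0.39, edgeR adjusted p = 0.0373) and Trissin minus AstC/VGlut -1.27 (SE 0.39, edgeR adjusted p = 0.00987). With every cell thinned to 6000 UMIs, Irk1 was detected in 35.2% of Pdf cells and 32.4% of ITP cells, but in 13.4% of Trissin cells and 8.87% of the sorted cells outside the gates. Before thinning these shares were 53.8%, 48.6%, 29.6% and 20.2%, at median depths of 19037, 22029, 19484 and 14608 UMIs.

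In all, 4 of 25 tests of a member in a class passed, against a background of 25.7% of all such tests over all genes. Between pairs of classes, 9 of 50 tests passed, against a background of 24.2%. The share of members called was in neither case above that background, and the calls were those of Irk1, unc79 and, in 1 pair, Nlf-1. Irk2 and Irk3 were too low to test. The 5001 wells held 155 UMIs of Irk2 in 134 wells and 44 UMIs of Irk3 in 39 wells. Irk3 had no UMI in 448 AstC/VGlut cells, which allows a share of up to 0.67% of cells with a UMI, nor in 169 Trissin cells, which allows up to 1.78%, both for counting error only.

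**Figure D1:**
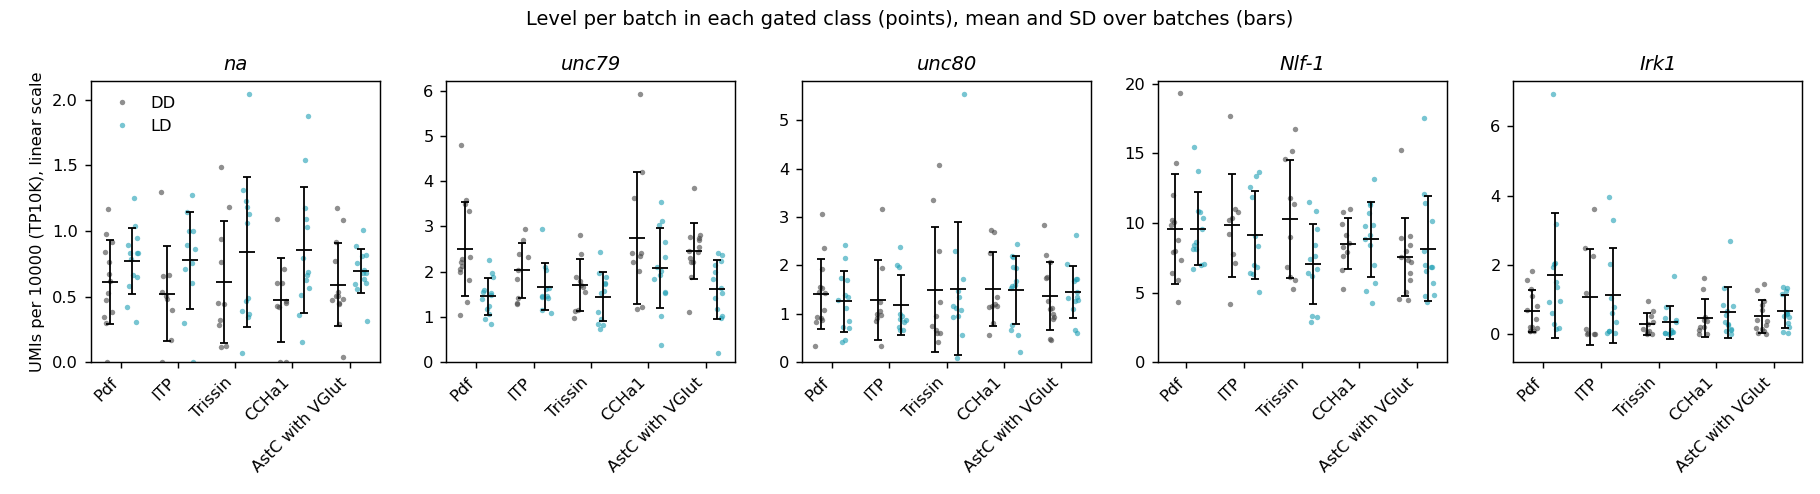
Level of 5 members in TP10K (y axes, linear) in each gated class (x axis): points are batches, DD left of LD, and bars give the mean and SD over batches. Batches of all classes overlap for all 5 members. Irk1 reached 6.94 TP10K in a Pdf batch and at most 1.67 TP10K in a Trissin batch of ZT22. That Trissin value rests on few counts, since the 3 Trissin batches of ZT22 together held 12 UMIs of Irk1.

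**Figure D2:**
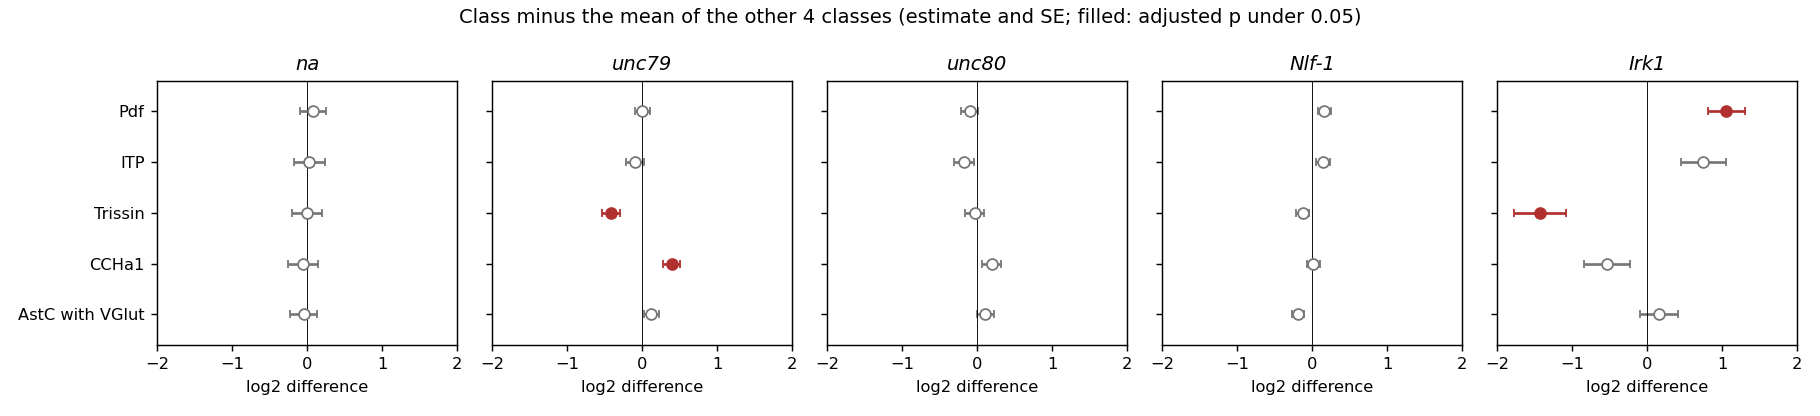
Log2 difference of each class (rows) minus the mean of the other 4 classes (x axes) for 5 members, with bars for 1 SE. The 4 filled points passed: Irk1 in Pdf cells (1.06) and Trissin cells (-1.43), and unc79 in Trissin cells (-0.42) and CCHa1 cells (0.40).

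The second comparison asked which transcripts changed over the day. A 24 h curve was fitted in each class to DD alone, to LD alone and to both with a shared curve. A gene was called a cycler at an adjusted p under 0.05, a ratio of highest to lowest time-point mean of at least 1.5 and a highest mean of at least 0.8 TP10K. In the shared fit 3 of 24 tests of members were called, against a background of 4.99%: Irk1 in ITP cells, and Irk1 and Nlf-1 in AstC/VGlut cells. In DD alone 1 of 20 was called, Irk1 in ITP cells (background 1.05% over all classes, 0.259% in ITP cells). In LD alone 1 of 24 was called, Irk1 in Pdf cells (background 1.67% over all classes, 3.13% in Pdf cells).

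Irk1 in ITP cells was low around the start of the day and high in the early night. In DD, the batches had 0.0487 and 0 TP10K at CT2, 0 TP10K in the only batch at CT6, 2.27 and 3.61 TP10K at CT14, 1.18 and 2.49 TP10K at CT18, and 0.145 and 0 TP10K at CT22. No batch at CT10 had 3 cells. All 4 batches of CT14 and CT18 were above all 5 others. In LD, the batches had 0.104 TP10K at ZT2, 0.796 and 0.622 TP10K at ZT6, 0.354, 3.96 and 0.0507 TP10K at ZT10, 2.04 and 3.29 TP10K at ZT14, 1.05 TP10K at ZT18, and 0.0324 and 0.0911 TP10K at ZT22. The batches at ZT10 fell far apart, and at that time 5 of 16 ITP cells had a UMI of Irk1. At ZT14, 18 of 19 did. A single cell held 30 of the 31 UMIs of the ZT10 batch with 3.96 TP10K, which had 4 cells.

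The shared curve of Irk1 in ITP cells had a log2 amplitude, from trough to peak, of 5.11 (SE 0.92) with a peak at 13.2 h (SE 0.72, edgeR adjusted p = 0.00646). It passed with any of the 20 batches left out (adjusted p = 0.00188 to 0.0209) but not with the label number, which recurs across time points, as a block (edgeR adjusted p = 0.280). In DD alone the edgeR adjusted p was 0.0134, with CT14 at least 8.94-fold higher than CT6, where no UMI was read and the floor of 3 UMIs was used. This call was lost without CT14 batch b (0.192), CT2 batch b (0.0681) or CT18 batch b (0.0643). In LD alone the amplitude was 4.55 (SE 1.25), which did not pass (edgeR adjusted p = 0.271).

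In AstC/VGlut cells Irk1 peaked earlier, late in the day. In DD, the batches had 0.0478 and 0.403 TP10K at CT2, 0.697 and 0 TP10K at CT6, 1.28, 0.948 and 1.44 TP10K at CT10, 0.850 and 0.392 TP10K at CT14, 0.0913 and 0.183 TP10K at CT18, and 0.153 and 0.272 TP10K at CT22. All 3 batches of CT10 were above every other DD batch. In LD, they had 0.488 and 0.581 TP10K at ZT2, 1.33 and 0.655 TP10K at ZT6, 1.35, 1.25 and 0.614 TP10K at ZT10, 0.518 and 0.223 TP10K at ZT14, 1.17 and 0.327 TP10K at ZT18, and 0.0702 and 0.0372 TP10K at ZT22. Here the LD batches of ZT22 were the lowest, and the ZT18 batches fell apart. The shared curve had a log2 amplitude of 2.53 (SE 0.55) and a peak at 9.32 h (SE 0.88, edgeR adjusted p = 0.00949), and passed with any of the 26 batches left out (adjusted p = 0.00117 to 0.0227). Neither condition passed alone, with an edgeR adjusted p of 0.117 in DD and 0.418 in LD. The shared curve did not pass with gates lowered 2 times (0.109) or with the label number as a block (0.123).

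In Pdf cells the curve of Irk1 passed in LD only, at the edge of the threshold. In DD, the batches had 0.223 and 0.101 TP10K at CT2, 0.187 and 0.216 TP10K at CT6, 1.30, 1.12 and 0.805 TP10K at CT10, 1.56 and 0.0898 TP10K at CT14, 0.431 and 0.706 TP10K at CT18, and 1.83 and 0.109 TP10K at CT22. In LD, they had 0.193 and 0.141 TP10K at ZT2, 1.38 and 2.02 TP10K at ZT6, 3.18, 6.94 and 0.942 TP10K at ZT10, 1.51 and 1.95 TP10K at ZT14, 2.05 and 0.966 TP10K at ZT18, and 0.288 and 0.606 TP10K at ZT22. Both ZT2 batches were below all other LD batches, whereas in DD the batches of CT14 and of CT22 stood at both ends of the range. In LD the log2 amplitude was 3.54 (SE 0.69), with a peak at 11.9 h (edgeR adjusted p = 0.0496), and the mean of ZT10 was 22-fold that of ZT2. In DD it was 1.81 (SE 1.0, edgeR adjusted p = 0.759). The LD call was lost in 10 of the 13 fits with a batch left out, with an adjusted p of up to 0.141 without ZT10 batch b. It was also lost with gates raised 2 times (0.233) or lowered 2 times (0.0594), with library size in place of TMM (0.0528), with time as a factor (0.13) and with the label number as a block (0.279). The shared curve did not pass (edgeR adjusted p = 0.115), nor did the test of a difference between the DD and LD curves (edgeR adjusted p = 0.598).

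In CCHa1 cells the Irk1 batches ranged from 0 to 1.62 TP10K in DD (median 0.308, n = 10) and from 0 to 2.70 TP10K in LD (median 0.354, n = 13), and the shared curve did not pass (log2 amplitude 1.88, SE 0.94, edgeR adjusted p = 0.75). In Trissin cells Irk1 did not enter the fits of DD, of LD and of the shared curve. It did enter the tests of DD against LD, of level at matched times and of curves. The Irk1 batches of Trissin cells ranged from 0 to 0.956 TP10K in DD (median 0.230, n = 10) and from 0 to 1.67 TP10K in LD (median 0.0945, n = 12).

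**Figure D3:**
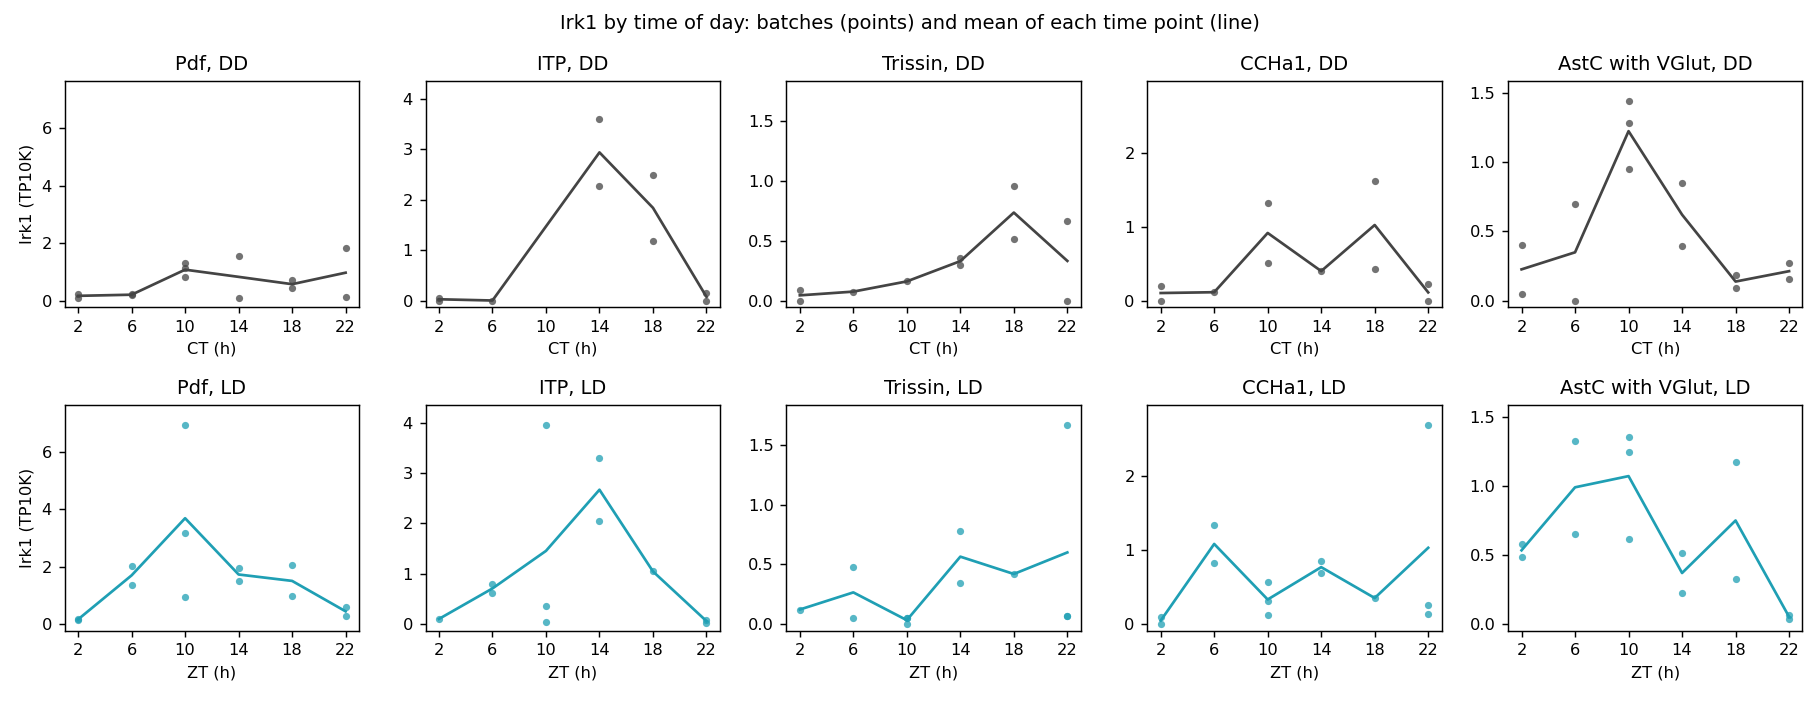
Irk1 in TP10K (y axes, each class on its own scale) against circadian or zeitgeber time in hours (x axes), DD above LD: points are batches and lines join the means of the time points. In DD, ITP batches of CT14 (2.27 and 3.61 TP10K) and CT18 (1.18 and 2.49 TP10K) lie above the others, as do AstC/VGlut batches of CT10 (0.948 to 1.44 TP10K). In LD the highest ITP batch is one of ZT10 (3.96 TP10K), with 30 of its 31 UMIs in 1 cell.

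Nlf-1 in AstC/VGlut cells rose by about 1 log2 unit from trough to peak. In DD, the batches had 5.07 and 4.56 TP10K at CT2, 6.44 and 8.44 TP10K at CT6, 7.33, 5.87 and 15.2 TP10K at CT10, 8.90 and 7.55 TP10K at CT14, 7.97 and 9.06 TP10K at CT18, and 7.21 and 4.46 TP10K at CT22. In LD, they had 6.83 and 5.68 TP10K at ZT2, 4.29 and 6.95 TP10K at ZT6, 12.1, 17.6 and 10.1 TP10K at ZT10, 8.02 and 11.5 TP10K at ZT14, 6.87 and 6.53 TP10K at ZT18, and 4.82 and 4.72 TP10K at ZT22. The LD batches of ZT10 were above all others of LD but 1 batch at ZT14, and the high level at CT10 in DD was that of 1 batch. The shared curve had a log2 amplitude of 1.0 (SE 0.22) and a peak at 12.1 h (SE 0.87, edgeR adjusted p = 0.00953), and passed with any of the 26 batches left out (adjusted p = 0.00352 to 0.0314). Neither DD alone (amplitude 0.79, edgeR adjusted p = 0.545) nor LD alone (amplitude 1.25, edgeR adjusted p = 0.0689) passed. With the label number as a block the shared curve passed (0.0422). It did not pass with gates lowered 2 times (0.0522) or without the filter on low counts (0.0863).

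In the other classes the shared curve of Nlf-1 did not pass. Its log2 amplitude was 0.23 (SE 0.25) in Pdf cells, 0.48 (SE 0.35) in ITP cells, 0.76 (SE 0.33) in Trissin cells and 0.48 (SE 0.24) in CCHa1 cells (edgeR adjusted p = 0.477 to 0.923). In LD alone the amplitudes were 0.55 (SE 0.27) in Pdf, 0.98 (SE 0.33) in ITP, 1.02 (SE 0.34) in Trissin and 1.02 (SE 0.31) in CCHa1 cells, against 1.25 (SE 0.29) in AstC/VGlut cells. None of these passed (edgeR adjusted p = 0.362 to 0.535 in the first 4 classes). CT22 batch a was high in Nlf-1 in several classes. It had 19.4 TP10K in Pdf cells, against 8.0 TP10K in the other batch of CT22, and 17.7 TP10K in ITP cells, against 4.16 TP10K. In its 8 ITP cells, 157 of the 366 UMIs of Nlf-1 were in 1 cell.

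**Figure D4:**
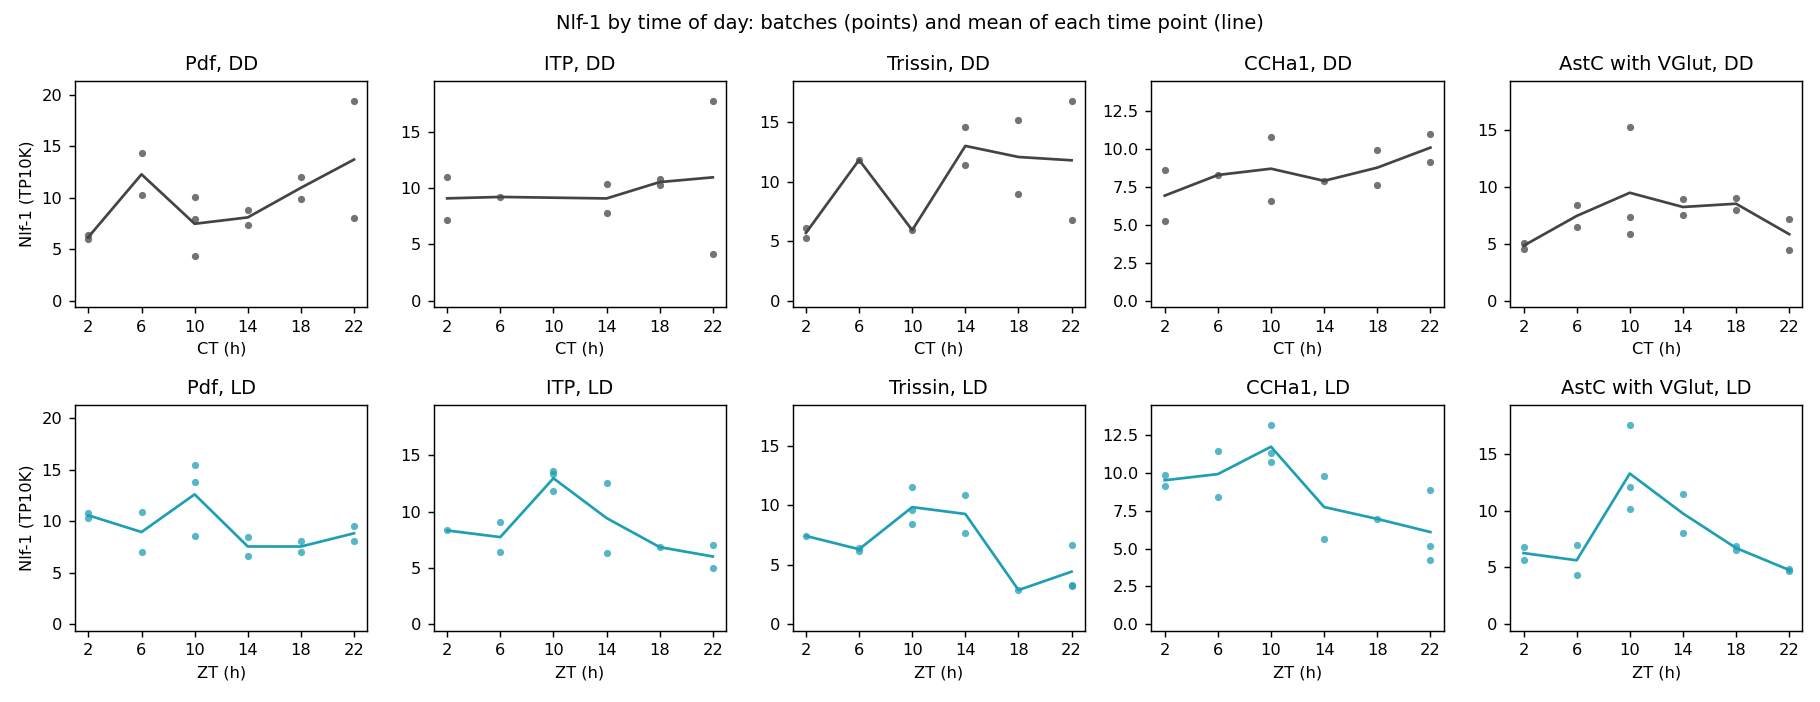
Nlf-1 in TP10K (y axes, each class on its own scale) against circadian or zeitgeber time in hours (x axes), DD above LD: points are batches and lines join the means of the time points. AstC/VGlut batches in LD had 10.1 to 17.6 TP10K at ZT10, above all other LD batches but 1 of ZT14 (11.5 TP10K), and the Pdf and ITP batches of CT22 lie far apart in DD (19.4 and 8.0, and 17.7 and 4.16 TP10K).

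The genes of the channel itself were not called in any fit that was run. In DD alone na was tested only in Pdf and AstC/VGlut cells. In the shared fit the log2 amplitudes were 0.12 to 1.43 for na, 0.11 to 0.90 for unc79 and 0.60 to 1.25 for unc80. For na the standard errors were 0.37 to 0.67, and amplitudes of the size of that of Nlf-1 lie within these intervals in several classes. The tests nearest to passing were those of unc80 in Pdf cells (edgeR adjusted p = 0.247) and unc79 in Trissin cells (edgeR adjusted p = 0.335). The time-point means of na in Pdf cells, over both conditions, lay between 0.595 and 0.813 TP10K, and those of unc79 between 1.52 and 2.56 TP10K.

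**Figure D5:**
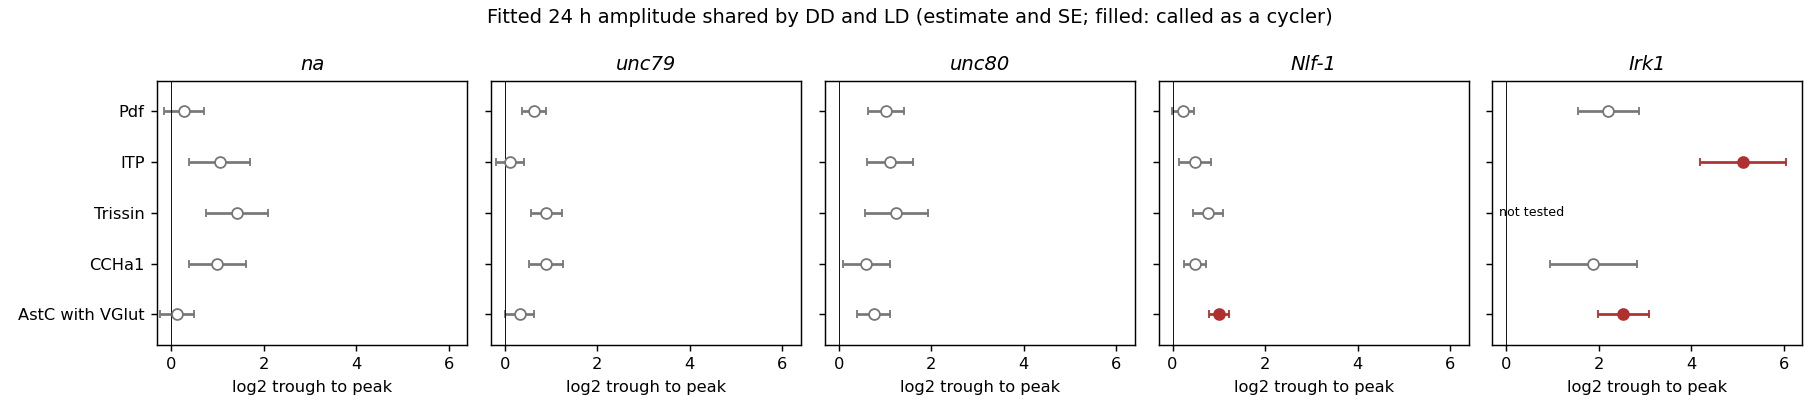
Log2 amplitude from trough to peak of the 24 h curve shared by DD and LD (x axes) in each class (rows) for 5 members, with bars for 1 SE. The 3 filled points were called as cyclers: Irk1 in ITP cells (5.11) and AstC/VGlut cells (2.53), and Nlf-1 in AstC/VGlut cells (1.0).

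Whether the curves differed between classes was tested directly, with a test chosen after the values above were seen. Curves of all 5 classes were compared within batches, amplitude and phase together. They differed for Irk1 (edgeR adjusted p = 3.13e-05) and Nlf-1 (edgeR adjusted p = 0.0226), but not for na (0.573), unc79 (0.68) or unc80 (0.981), against a background of 12.1% of all genes. The result for Irk1 held with any of the 27 batches left out (5.96e-06 to 0.00029). The result for Nlf-1 was lost without ZT14 batch b (0.0556), without Pdf cells (0.21) or without AstC/VGlut cells (0.666).

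The third comparison set DD against LD. At matched times none of the 25 tests of members passed, against a background of 1.57%, and 2 had an unadjusted p under 0.05 in edgeR. These were both in Pdf cells, where Irk1 had a log2 difference, DD minus LD, of -1.28 (95% interval -2.12 to -0.44, edgeR adjusted p = 0.125) and unc79 one of 0.51 (95% interval 0.12 to 0.90, edgeR adjusted p = 0.163). The difference was negative in all 5 classes for na, Irk1 and unc80. For Irk1 it was -1.28 to -0.39 and for unc80 -0.45 to -0.03. For na it was -0.57 in Pdf, -1.09 in ITP, -0.58 in Trissin, -0.87 in CCHa1 and -0.57 in AstC/VGlut cells, and did not pass in any class (edgeR adjusted p = 0.295 to 0.63). These classes share their batches. A difference between the 24 h curves of DD and LD passed for no member in 25 edgeR tests, 1 of which had an unadjusted p under 0.05, that of unc80 in Trissin cells (edgeR adjusted p = 0.859). The background was 0%, since no gene of any class was called in that test.

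A pair of LD batches stood apart in Irk1 in the sorted cells outside the gates, ZT18 batch a with 1.39 TP10K (57 cells) and ZT22 batch b with 1.57 TP10K (40 cells), against 0.0182 to 0.564 TP10K in the other 26 batches. ZT22 batch b also gave the highest Irk1 in CCHa1 cells (2.70 TP10K) and in Trissin cells (1.67 TP10K). Both values rest on few counts. The 3 batches of ZT22 together held 13 UMIs of Irk1 in CCHa1 cells and 12 in Trissin cells. Without both batches, a fit added after these values were seen, the counts of called tests were as before. Irk1 in AstC/VGlut cells then had an amplitude of 2.90 (edgeR adjusted p = 0.00117), Nlf-1 in AstC/VGlut cells 1.01 (edgeR adjusted p = 0.0111) and Irk1 in Pdf cells in LD 3.54 (edgeR adjusted p = 0.0343). In CCHa1 cells the amplitude of Irk1 went from 0.85 to 2.39 in LD (edgeR adjusted p = 0.659 without the batches). In the shared fit it went from 1.88 to 2.58 (edgeR adjusted p = 0.289 without them), and neither was called.

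Reads were assigned to genes by annotated exons, so neighbours that overlap a member matter for its count. On the dm6 assembly na lies at chromosome X, 14266367 to 14277416, unc79 at 3R, 19230764 to 19246130, unc80 at 3R, 27662439 to 27677099, and Nlf-1 at 2R, 24695378 to 24736657. Irk1 lies at 3R, 23168317 to 23185642, Irk2 at 3R, 23513617 to 23519445, and Irk3 at 2L, 18711071 to 18713748. Irk1 shares 3202 exon bases with CG46310 on the same strand, a gene with no counts of its own here, and reads of the pair cannot be told apart. It also shares 63 exon bases with cnc on the opposite strand, and cnc was not a cycler in the shared fit in any class (edgeR adjusted p = 0.576 to 0.981). In AstC/VGlut cells in DD, cnc was highest at CT10 (4.73 TP10K) and lowest at CT18 (1.26 TP10K), as was Irk1, but was not called (edgeR adjusted p = 0.578). In LD cnc was highest there at ZT22 and lowest at ZT10, the reverse of Irk1. The part of cnc in the counts of Irk1 was not tested. Irk3 shares 227 exon bases with Grip71 on the opposite strand, and unc79 69 with Polr2M.

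A list of 39 other genes of membrane excitability gave the setting for the members. Of these, 34 were listed, and 29 were tested for a shared curve in at least 1 class. There were 6 cyclers: the potassium channel genes Shab and SK, the sodium channel family gene NaCP60E, the sodium pump subunit genes nrv1 and nrv3, and the exchanger gene Nhe2. Pdf cells had 5 of 27 (background 7.36%), ITP cells 0 of 26 (background 2.46%), Trissin cells 2 of 27 (background 4.44%), CCHa1 cells 1 of 27 (background 1.56%) and AstC/VGlut cells 4 of 28 (background 7.12%). SK had a log2 amplitude of 2.07 in AstC/VGlut cells with a peak at 12.4 h (edgeR adjusted p = 3.68e-06), and Shab one of 2.17 in Pdf cells with a peak at 8.46 h (edgeR adjusted p = 4.80e-06). The amplitude of nrv1 was 4.10 in Pdf cells, 2.70 in Trissin cells and 4.28 in AstC/VGlut cells, with peaks at 21.2, 3.61 and 20.5 h. That of Nhe2 was 2.86, 2.30 and 2.29 in the same classes, with peaks at 1.08, 2.71 and 23.6 h. The amplitude of NaCP60E was 0.95 in Pdf cells and 1.54 in CCHa1 cells, and that of nrv3 was 0.73 in Pdf cells and 0.76 in AstC/VGlut cells, all with peaks between 21.1 and 22.4 h.

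By level against the other classes, 2 of 29 genes of the list were called higher in Pdf cells (background 17.2%) and 9 lower (background 12.4%). In ITP cells 6 were higher (background 9.81%) and 5 lower (background 9.34%), and in Trissin cells 3 were higher (background 10.5%) and 3 lower (background 11.3%). In CCHa1 cells 11 were higher (background 13.8%) and 6 lower (background 15.9%), and in AstC/VGlut cells 9 were higher (background 15.5%) and 3 lower (background 12.9%). The median absolute log2 difference of the list was 0.163 in Pdf cells, where that of all genes was 0.207, and 0.282 in CCHa1 cells, where that of all genes was 0.246.

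Genes with the most similar pattern were named by Pearson's r over the 59 means of class, light condition and time point, among 2360 genes. These points share libraries and depth, and r is given as a description. The nearest to Irk1 was vri, a clock gene that encodes a repressor of Clk (r = 0.67), followed by CG7706 (r = 0.60). Nlf-1 had Syt4 (r = 0.55) and Rab2 (r = 0.54), na had tey (r = 0.57) and CG1632 (r = 0.55), unc79 had mge (r = 0.56) and CG8245 (r = 0.56), and unc80 had CR44832 (r = 0.73) and CG12239 (r = 0.72). Among the members r was -0.30 between na and unc79, 0.22 between unc79 and unc80, -0.43 between unc80 and Nlf-1, and 0.16 between Nlf-1 and Irk1.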

How the data were processed

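Single sorted cells were sequenced by a CEL-Seq2 method. As the study's methods state, zUMIs with STAR was run against the dm6 assembly, and the authors deposited, per library, a table of UMI counts by gene and well over annotated exons. The submitters' processing notes also name bcl2fastq 2.20. The strand setting and annotation release are not given in the sources used here. From the deposited counts, wells with 1000 to 6000 genes and 6000 to 75000 UMIs were kept, totals did not include EGFP or spike-ins, cells were gated at fixed TP10K, the 20 cells in several gates were left out, no doublet caller was run, and UMIs were summed per class and batch with at least 3 cells (117 sums). Sums were tested with edgeR 4.0.16 in R 4.3.3 (TMM, filterByExpr, quasi-likelihood F test), with Benjamini-Hochberg adjustment over all genes tested, at 0.05. Class levels had terms for class and batch, and curves cosine and sine terms of 24 h. Every member was reported, and nearest genes were the 2 with the highest r among genes of at least 0.5 TP10K, on log2(TP10K + 0.1).

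Alternatives were DESeq2 1.42.0, no filter, library size in place of TMM, gates raised or lowered 2 times, cell minima of 1 and 6, an entropy limit on wells, time as a factor, single libraries as units, a batch block and leaving out each batch. The scripts were tested on simulated data. Members and lists were chosen with earlier results of these data known. Symbols and coordinates came from Ensembl and RefSeq tables of the same assembly.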

Additional observations from a re-analysis of the deposited data

Results flagged for a closer look

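The curves of Irk1 differed between the 5 classes (edgeR adjusted p = 3.13e-05), as did those of Nlf-1 (edgeR adjusted p = 0.0226). Nlf-1 in ITP cells in DD had 17.7 TP10K in CT22 batch a, where the nearest of the other 8 batches had 11 TP10K. The gap was 0.496 of the range, just over Dixon's 95% critical value for 9 batches. This was 1 of 15 groups examined, and chance gives about 1 in 20. A single ITP cell held 157 of the 366 UMIs of Nlf-1 in CT22 batch a. The 3059 wells outside the limits on genes and UMIs, with a median of 1852 UMIs, also held UMIs of every member. Their pooled level was 0.617 TP10K for na, against 0.724 in the kept wells, 2.50 for unc79 against 2.57, 1.59 for unc80 against 1.5, 5.18 for Nlf-1 against 6.95, and 0.338 for Irk1 against 0.388. Irk2 stood at 0.0373 TP10K against 0.0161, and Irk3 at 0.00257 against 0.00457.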

How the results depend on the processing

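None of the 4 class differences called turned its direction under the alternatives run. For curves only the calls were compared, not the amplitude or the peak time. Of the 4 class differences called, 2 were called with gates raised 2 times. For curves in LD, where 1 test was called, 2 were called without the filter and with DESeq2, 4 with single libraries as units, and 0 with library size in place of TMM, with gates lowered 2 times, with time as a factor and with the batch block. For curves in DD, also 1, the count was 2 without the filter, with DESeq2 and with single libraries, and 0 with the block. With the block the DD curve of Irk1 in ITP cells, the 1 called, could not be fitted, so this 0 does not show that the call was lost. For shared curves, 3, it was 1 with gates lowered 2 times, 6 with single libraries and 1 with the block. For DD against LD, 0, it was 1 without the filter, with DESeq2 and with library size, and 3 with single libraries. The curves differed between classes for 2 members, and for 1 without Pdf or without AstC/VGlut cells. Leaving out a batch gave 4 to 5 class differences, 0 to 1 curves in LD, 0 to 2 in DD, 3 to 4 shared curves, 0 to 1 differences of DD and LD and 1 to 2 members whose curves differed between classes. Single libraries of 1 batch are not independent.

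Batch numbers were not used to pair the samples in the main fits. Deviations of same-numbered batches correlated above 0.1 in 3 of 4 pairs in DD and 7 of 14 in LD. For batches with different numbers the count was 12 of 66 pairs in DD and 23 of 67 in LD, a smaller share in both. With the number as a replicate block, the adjusted p was 0.280 for the shared curve of Irk1 in ITP cells, 0.123 in AstC/VGlut cells and 0.279 for LD in Pdf cells. With gates raised 2 times the LD count stayed at 1, although Irk1 in Pdf cells was not the test called (0.233). The cause was not tested. Irk2 and Irk3 were too low at these depths to be tested.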
